A study of Mus musculus with 4 samples.

Results

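To describe how RBP-J deficiency bears on the genes that mark nonclassical monocytes, 10 such genes were followed gene by gene in mouse blood monocytes: Ace, Spn, Cd9, Treml4, Cd300e, Cd274, Pglyrp1, Ear2, Eno3 and Fabp4. The deposited table holds 23995 gene symbols, and 9 of the 10 genes have a row under their own symbol. Ear2 has only a row that joins the symbols Ear2 and Ear3, so counts and medians cover 9 genes, and that row is given beside them. RNA of Ly6Clo and Ly6Chi monocytes, sorted from blood by flow cytometry, gave 4 RNA-seq libraries, a single one per genotype in either subset. Control mice were Rbpj+/+ Lyz2 cre/cre, and RBP-J-deficient mice were Rbpj fl/fl Lyz2 cre/cre. Both genotypes therefore carried 2 copies of the Lyz2-Cre allele, which is active across myeloid cells rather than in monocytes alone. The control libraries are titled WT, with the genotype label Lyz2-Cre. The mice were young adults matched for sex and age, and the number that gave blood for each library is not given in the sources used here.

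Mouse blood holds 2 main monocyte subsets. Classical Ly6Chi monocytes enter inflamed tissue through the chemokine receptor CCR2 and can convert into nonclassical Ly6Clo monocytes, which patrol the wall of small vessels and depend on the nuclear receptor Nr4a1. RBP-J is the DNA-binding protein through which Notch receptors act on their target genes. The genes described here were drawn from surface enzymes and adhesion molecules (Ace, Spn, Cd9), immune receptors and ligands (Treml4, Cd300e, Cd274), secreted innate proteins (Pglyrp1, Ear2) and cytoplasmic metabolic proteins (Eno3, Fabp4).

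Expression is given as FPKM, which counts sequenced fragments per kilobase of transcript, relative to all fragments mapped in the library, so that levels can be set side by side between genes. Differences are log2 ratios of (FPKM + 1), on which 1 is a 2-fold difference and low genes are understated. With 1 library per group there was no test and no replicate check, and the depth of the libraries is unknown. The background for every count is the 10240 genes that reached an FPKM of 1 in any of the libraries, which include the 9 genes and the joined Ear2 row. Rbpj itself was at 8.30 FPKM in the control and 2.43 in the RBP-J-deficient Ly6Clo library, and at 14.4 and 2.85 in Ly6Chi monocytes, lower in RBP-J-deficient cells of both subsets. The FPKM of all genes summed to between 711532 and 885649 in the 4 libraries, with the highest sum in RBP-J-deficient Ly6Clo monocytes. Actb, which every cell uses, stands at 0 in the RBP-J-deficient pair and at 27260 (Ly6Clo) and 22795 (Ly6Chi) in the controls, so a value of 0 can be a failed estimate. In sorted bulk RNA, a smaller number of cells of a type and less RNA per cell cannot be told apart.

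Because RBP-J binds the letters TGGGAA, these were searched on both strands (the reverse complement is TTCCCA) in RefSeq windows on GRCm38.p6 of 250 bases before to 50 after each gene start. A match was found in 25.6% of 32851 promoters and in 3 of the 9 genes with a promoter entry, which were Treml4, Eno3 and Cd9. The windows of Ace, Spn, Pglyrp1, Cd274, Cd300e and Ear2 hold none. The 250 bases before the start are shown for Ace (the first of its 2 entries), which had the lowest genotype ratio in Ly6Clo monocytes, and for the 3 genes with a match, whose letters are in capitals. The match begins 60 bases before the start in Treml4 and 221 bases before it in Eno3, both on the opposite strand, and 211 bases before it in Cd9, on the strand of the gene. A match of letters is a description of the window and not a binding site.
Ace, chr11:105967698-105967947, plus strand: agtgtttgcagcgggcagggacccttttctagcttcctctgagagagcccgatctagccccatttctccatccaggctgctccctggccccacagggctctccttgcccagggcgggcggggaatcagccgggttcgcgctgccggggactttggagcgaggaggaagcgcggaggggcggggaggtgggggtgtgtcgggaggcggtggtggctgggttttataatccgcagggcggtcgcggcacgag
Treml4, chr17:48264045-48264294, plus strand: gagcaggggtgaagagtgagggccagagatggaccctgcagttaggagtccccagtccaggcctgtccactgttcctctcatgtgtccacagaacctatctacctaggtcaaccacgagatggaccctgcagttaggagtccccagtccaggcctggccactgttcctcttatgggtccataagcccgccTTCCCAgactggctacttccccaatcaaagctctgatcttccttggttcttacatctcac
Eno3, chr11:70656926-70657175, plus strand: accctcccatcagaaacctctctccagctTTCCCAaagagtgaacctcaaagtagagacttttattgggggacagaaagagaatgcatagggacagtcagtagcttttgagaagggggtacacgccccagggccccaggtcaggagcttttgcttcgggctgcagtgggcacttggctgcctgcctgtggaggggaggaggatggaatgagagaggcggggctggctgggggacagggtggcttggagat
Cd9, chr6:125494761-125495010, minus strand: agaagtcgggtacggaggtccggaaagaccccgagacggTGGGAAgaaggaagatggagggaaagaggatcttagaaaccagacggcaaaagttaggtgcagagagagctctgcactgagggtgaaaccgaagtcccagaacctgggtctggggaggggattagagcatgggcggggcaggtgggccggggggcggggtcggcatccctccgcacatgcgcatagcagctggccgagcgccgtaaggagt

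The first comparison, Ly6Clo against Ly6Chi monocytes of control mice, asks whether the genes mark the subset they are named for. All 9 genes were at least 2-fold higher in control Ly6Clo than in control Ly6Chi monocytes, against 5.21% of all genes. Of the 9, 6 also passed the 5.7-fold threshold of the study's methods (Cd274, Cd300e, Eno3, Fabp4, Pglyrp1 and Treml4), against 0.742% of all genes. The median log2 ratio was 3.16, and that of all genes was 0. Since these genes are listed for being markers of this subset, the counts describe the libraries and are not evidence about the genes.

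In control Ly6Clo monocytes the levels spanned from 38.8 (Cd274) to 1648 FPKM (Pglyrp1, rank 43 of all genes). From high to low the order was Pglyrp1, the joined Ear2 row, Treml4, Cd300e, Cd9, Eno3, Fabp4, Ace, Spn and Cd274. With 1 library a group, it is not known which neighbours in this order differ beyond the spread of replicates.

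**Figure D1:**
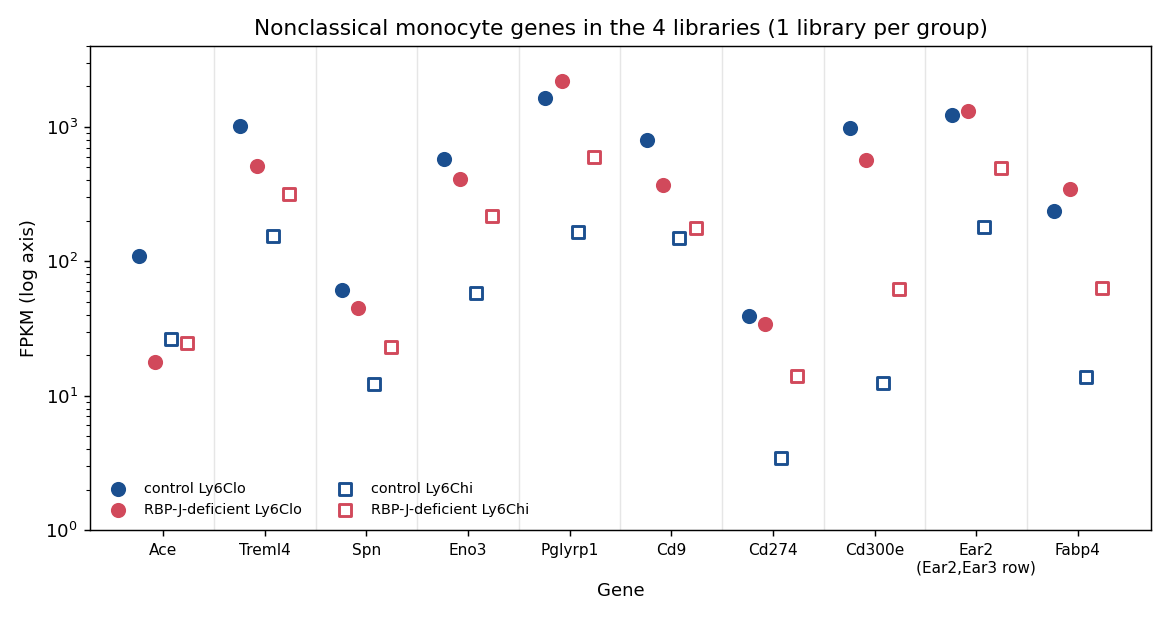
FPKM of each gene on a log axis in the 4 libraries, 1 point per library, with circles for Ly6Clo, open squares for Ly6Chi, blue for control and red for RBP-J-deficient monocytes. Ace is the gene whose RBP-J-deficient Ly6Clo value (17.7) lies below both Ly6Chi values (26.4 and 24.7), while in 8 of the 9 genes and in the joined Ear2 row both circles lie above both squares.

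Among the surface proteins, Ace stood apart. It encodes angiotensin-converting enzyme, a membrane peptidase that makes angiotensin II. Ace (chromosome 11, 105965607 to 105989964, mm10) was at 109 FPKM in the control and 17.7 in the RBP-J-deficient Ly6Clo library, and at 26.4 in control and 24.7 in RBP-J-deficient Ly6Chi monocytes. The control Ly6Clo library alone was high, and the other 3 lay within 17.7 and 26.4. The RBP-J-deficient FPKM in Ly6Clo monocytes was 16.3% of the control FPKM. The log2 ratio of (FPKM + 1) was -2.55, the 41st lowest of 10240 genes. The log2 ratio of Ly6Clo over Ly6Chi, called the subset difference from here on, was 2.002 in control mice and -0.46 after RBP-J deletion. In Ly6Chi monocytes the genotype ratio was -0.09, and it flipped to 0.06 once the trend of the ratio with transcript GC content was removed (the GC correction). Of the other 8 genes of the angiotensin pathway, none reached an FPKM of 1 in any library, among them Agt, which encodes the angiotensin precursor, and the receptors Agtr1a, Agtr1b and Agtr2.

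Spn encodes CD43, a heavily glycosylated sialomucin of leukocytes that is used to gate nonclassical monocytes. Spn (chromosome 7, 127132232 to 127137823) was at 61.5 FPKM in the control and 44.8 in the RBP-J-deficient Ly6Clo library, and at 12.2 and 23.1 in the Ly6Chi monocytes, control first. The Ly6Clo values were nearer each other and the Ly6Chi values were further apart on the log2 scale, with genotype ratios of -0.45 and 0.87. The subset difference was 2.24 for control and 0.92 for RBP-J-deficient mice, below 2-fold in the latter, although it was 1.09 after the GC correction. Selplg, the other expressed mucin of the list with a high level and a ligand of P-selectin, had 357 and 140 FPKM in control and RBP-J-deficient Ly6Clo and 428 and 345 in Ly6Chi monocytes, so that Ly6Clo did not exceed Ly6Chi in either genotype and both RBP-J-deficient values were lower.

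Cd9 encodes a tetraspanin, a 4-pass membrane protein that groups integrins and other receptors in the membrane. Cd9 (chromosome 6, 125460266 to 125494755) was at 797 FPKM in the control and 368 in the RBP-J-deficient Ly6Clo library, and at 149 and 178 in Ly6Chi monocytes. The genotype ratio was -1.11 in Ly6Clo and 0.25 in Ly6Chi monocytes, and the subset difference was 2.41 for control and 1.05 for RBP-J-deficient mice, where it fell short of 2-fold at 0.83 after rescaling the libraries to the same sum and 0.82 after the GC correction. Of 8 other expressed tetraspanins, 1 was at least 2-fold lower and 1 at least 2-fold higher in RBP-J-deficient Ly6Clo monocytes. Both shares are near those of all genes, 11.1% lower and 8.97% higher. The lower one, Cd82, had 156 and 39.2 FPKM in control and RBP-J-deficient Ly6Clo and 16.7 and 27.2 in Ly6Chi monocytes, which is the same order of libraries as in Cd9. The higher one was Cd63, a tetraspanin of lysosomes, at 0.0855 and 1.801 FPKM. Cd81, a widely expressed tetraspanin, was higher in Ly6Clo monocytes of both genotypes, with 61.8 and 107 FPKM in control and RBP-J-deficient Ly6Clo against 19.3 and 27.4 in Ly6Chi monocytes. Of the 1179 stretches of 50 bases in the Cd9 transcript, 15.5% also occur in transcripts of Gm26728 or the pseudogene Cd9-ps, where the counting could split reads.

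The immune receptors and ligands were each lower in RBP-J-deficient than in control Ly6Clo monocytes and higher in RBP-J-deficient than in control Ly6Chi monocytes. Treml4, a TREM-like receptor that binds dying cells and favours TLR7 signalling, lies on chromosome 17 from 48264295 to 48275358. Treml4 was at 1018 FPKM in the control and 513 in the RBP-J-deficient Ly6Clo library, and at 154 and 316 in Ly6Chi monocytes. The subsets were thus closer together in RBP-J-deficient mice, where the subset difference was 0.70 against 2.71 in control mice. The genotype ratio in Ly6Clo monocytes was -0.99, just short of 2-fold. In Ly6Chi monocytes it was 1.03, just past it, and after rescaling the libraries to the same sum it was 0.93.

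Of the 5 other expressed TREM family genes, Trem1 and Trem3 were at least 2-fold higher in control Ly6Clo than control Ly6Chi monocytes. That held for 5.21% of all genes. Trem2 and Treml1 were at least 2-fold lower, as were 794 of 10240 genes. Trem3, a receptor that signals through DAP12, was the highest of the 5. It had 475 and 558 FPKM in control and RBP-J-deficient Ly6Clo and 108 and 293 in Ly6Chi monocytes. Trem1, an amplifier of inflammatory signals, had 24.7 and 12.2 FPKM in Ly6Clo and 4.19 and 6.37 in Ly6Chi monocytes. Trem2, a lipid receptor of tissue macrophages, ran the other way, with 7.16 and 24.6 FPKM in Ly6Clo and 47.0 and 45.4 in Ly6Chi monocytes.

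Cd300e encodes an activating receptor of the CD300 family on monocytes. Cd300e (chromosome 11, 115051917 to 115062038) was at 987 FPKM in the control and 564 in the RBP-J-deficient Ly6Clo library, and at 12.5 and 61.9 in Ly6Chi monocytes. The control Ly6Clo FPKM was 79.0 times the control Ly6Chi FPKM. On (FPKM + 1) the log2 ratio was 6.19, the 3rd highest of 10240 genes. In RBP-J-deficient mice the FPKM ratio was 9.11-fold, and the log2 ratio of (FPKM + 1) was 3.17, the 13th highest. The genotype ratio was -0.81 in Ly6Clo and 2.22 in Ly6Chi monocytes, and the latter was the 21st highest of all genes. Although the ratio in Ly6Chi monocytes was high, the RBP-J-deficient Ly6Chi level covered 5.07% of the way from the control Ly6Chi to the control Ly6Clo level.

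The other CD300 genes did not share one pattern. Cd300ld, an activating member of the same cluster, had 633 and 998 FPKM in control and RBP-J-deficient Ly6Clo and 107 and 239 in Ly6Chi monocytes. Cd300lg, known from endothelium, had 4.19 and 4.85 FPKM in Ly6Clo and 29.5 and 21.3 in Ly6Chi monocytes. Of the 5 other expressed CD300 genes, these were the only 2 at least 2-fold apart between the control subsets. Of all genes, 5.21% were at least 2-fold higher in control Ly6Clo monocytes, and 794 of 10240 were at least 2-fold lower. None of the 5 was 2-fold apart between genotypes in Ly6Clo monocytes, against 11.1% of all genes lower and 8.97% higher.

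Cd274 encodes PD-L1, the ligand of the inhibitory receptor PD-1 of T cells. Cd274 (chromosome 19, 29367438 to 29388094) was at 38.8 FPKM in the control and 34.0 in the RBP-J-deficient Ly6Clo library, and at 3.46 and 14.1 in Ly6Chi monocytes. The Ly6Clo libraries were close (log2 ratio -0.19). The Ly6Chi libraries were 4.07-fold apart in FPKM, and their log2 ratio of (FPKM + 1) was 1.76. The subset difference was 3.16 for control and 1.21 for RBP-J-deficient mice, and 0.95 in the latter after the GC correction. Pdcd1lg2, which encodes PD-L2, the second ligand of PD-1, had 3.47 and 5.005 FPKM in Ly6Clo and 0.0129 and 1.13 in Ly6Chi monocytes, control first. The costimulatory genes Cd80 and Cd86 were less than 2-fold apart on (FPKM + 1) in all 4 comparisons. For Cd80 this depended on the added 1, with 2.44 FPKM in control and 5.35 in RBP-J-deficient Ly6Clo monocytes. In Cd274, 12.4% of the stretches of 50 bases also occur in transcripts of other genes.

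Of the secreted innate proteins, Pglyrp1, which binds the peptidoglycan of bacterial walls, was the most abundant. Pglyrp1 (chromosome 7, 18884690 to 18890438) was at 1648 FPKM in the control and 2192 in the RBP-J-deficient Ly6Clo library, and at 166 and 598 in Ly6Chi monocytes. Both RBP-J-deficient libraries were above the control library of the same subset, with log2 ratios of 0.41 and 1.84. The subset difference was 3.30 for control and 1.87 for RBP-J-deficient mice. The other 3 peptidoglycan recognition genes were each under 1 FPKM in all 4 libraries.

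Ear2 encodes a ribonuclease of the RNase A family, named for eosinophils. The joined Ear2 and Ear3 row (chromosome 14, 44102654 to 44103531) was at 1224 FPKM in the control and 1310 in the RBP-J-deficient Ly6Clo library, and at 181 and 493 in Ly6Chi monocytes. The subset difference was 2.75 for control and 1.41 for RBP-J-deficient mice, and the genotype ratio in Ly6Chi monocytes was 1.44. In Ly6Clo monocytes the genotype ratio was 0.10, and its direction flipped to -0.21 when libraries were rescaled to the same sum and to -0.25 after the GC correction. A separate Ear3 row at the same position had 143 and 229 FPKM in Ly6Clo and 15.8 and 86.3 in Ly6Chi monocytes. Of the 3 eosinophil markers with a row, Epx and Prg2 are listed at 0 in all 4 libraries, and Ccr3, a chemokine receptor, had 1.12 and 0.721 FPKM in Ly6Clo and 0.0472 and 0.635 in Ly6Chi monocytes.

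The row has a further limit, because the family members are nearly alike. Of the 670 stretches of 50 bases in the Ear2 transcript, 41.5% also occur in transcripts of Ear10, Ear1 or Ear-ps2. The coding sequence of Ear2 is identical to that of Ear10 at 97.0% of positions and to that of Ear1 at 95.1%. To show how few bases separate them, the first 150 bases of each coding sequence in GENCODE are given, with the bases that differ from Ear2 in capitals.
Ear2: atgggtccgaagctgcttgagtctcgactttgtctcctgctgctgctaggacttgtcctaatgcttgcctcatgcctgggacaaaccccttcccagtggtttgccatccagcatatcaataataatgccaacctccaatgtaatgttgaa
Ear10: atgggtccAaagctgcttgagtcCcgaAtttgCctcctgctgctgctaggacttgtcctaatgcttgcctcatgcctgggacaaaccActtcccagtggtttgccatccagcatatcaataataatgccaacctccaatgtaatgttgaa
Ear1: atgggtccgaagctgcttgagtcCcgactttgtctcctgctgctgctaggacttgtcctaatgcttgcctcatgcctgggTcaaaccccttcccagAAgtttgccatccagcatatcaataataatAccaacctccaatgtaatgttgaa
Only 5 of the 150 bases differ in either relative, so the counting could split reads among these genes and their separate values are uncertain. Ear10 had 152 and 391 FPKM in Ly6Clo and 22.9 and 272 in Ly6Chi monocytes, control first, and its genotype ratio in Ly6Chi monocytes was 3.51. Ear1 had 4.15 and 27.8 FPKM in Ly6Clo and 0.499 and 12.8 in Ly6Chi monocytes. Of the 6 other expressed genes of the family, Ear3 included, 4 were at least 2-fold higher in RBP-J-deficient than control Ly6Chi monocytes (Ear1, Ear3, Ear10 and Rnase2b), against 2.64% of all genes, and the separate values of the first 3 of these are uncertain for the reason given. Rnase6, the highest relative and an antimicrobial ribonuclease, had 550 and 852 FPKM in Ly6Clo and 304 and 498 in Ly6Chi monocytes, less than 2-fold apart in each comparison.

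Of the metabolic proteins, Eno3 encodes the enolase of skeletal muscle, an enzyme of glycolysis. Eno3 (chromosome 11, 70657176 to 70662513) was at 575 FPKM in the control and 410 in the RBP-J-deficient Ly6Clo library, and at 57.9 and 217 in Ly6Chi monocytes. The genotype ratio was -0.49 in Ly6Clo and 1.89 in Ly6Chi monocytes, where it was the 33rd highest of all genes. The subset difference was 3.29 for control and 0.92 for RBP-J-deficient mice, and 1.16 in the latter after the GC correction. Eno1, the widespread enolase, given in a row joined with Eno1b, had 1367 and 747 FPKM in Ly6Clo and 1499 and 1298 in Ly6Chi monocytes, with no 2-fold difference. Of the 4 muscle markers, Ckm, Acta1 and Myh4 were under 1 FPKM in every library, and Tnnt3 had 0.651 and 2.41 FPKM in Ly6Clo and 1.497 and 2.56 in Ly6Chi monocytes.

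Fabp4 encodes a fatty acid binding protein of adipocytes, macrophages and endothelium. Fabp4 (chromosome 3, 10204343 to 10208576) was at 235 FPKM in the control and 343 in the RBP-J-deficient Ly6Clo library, and at 13.8 and 63.7 in Ly6Chi monocytes. As with Pglyrp1, both RBP-J-deficient libraries were above the control library of the same subset, with log2 ratios of 0.55 and 2.13. The subset difference was 3.997 in control mice, the 8th highest of all genes, and 2.41 with RBP-J deleted. Fabp5, the highest of the other fatty acid binding genes, had 7.53 and 2.36 FPKM in Ly6Clo and 10.9 and 10.01 in Ly6Chi monocytes. All 4 adipocyte markers (Adipoq, Plin1, Cidec and Lep) are listed at 0 in all libraries. Of the 5 endothelial markers, Cdh5 and Tek are also listed at 0 throughout and Kdr was under 1 FPKM, while Vwf reached 1.42 FPKM at most. The fifth, Pecam1, an adhesion molecule that leukocytes also carry, had 54.1 and 55.1 FPKM in Ly6Clo and 4.26 and 6.10 in Ly6Chi monocytes, higher in Ly6Clo as Fabp4 was, and the part of endothelial RNA in the values was not tested.

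Ly6Clo was then compared with Ly6Chi within RBP-J-deficient mice. Of the 9 genes, 5 were at least 2-fold higher in Ly6Clo monocytes (Cd274, Cd300e, Cd9, Fabp4 and Pglyrp1), against 8.41% of all genes, and 1 was 5.7-fold higher (Cd300e), against 0.303%. The median log2 ratio was 1.05, and that of all genes was 0.02. In each of the 9 genes the subset difference was smaller in RBP-J-deficient than in control mice. Rescaled to the same sum, the libraries gave a median of 0.83 for the 9 genes and 4 genes at least 2-fold higher, without Cd9. That rescaling shifted the median of all genes to -0.16, and its split of 2-fold calls among all genes was 645 higher and 1582 lower, against 861 and 1083 before.

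**Figure D2:**
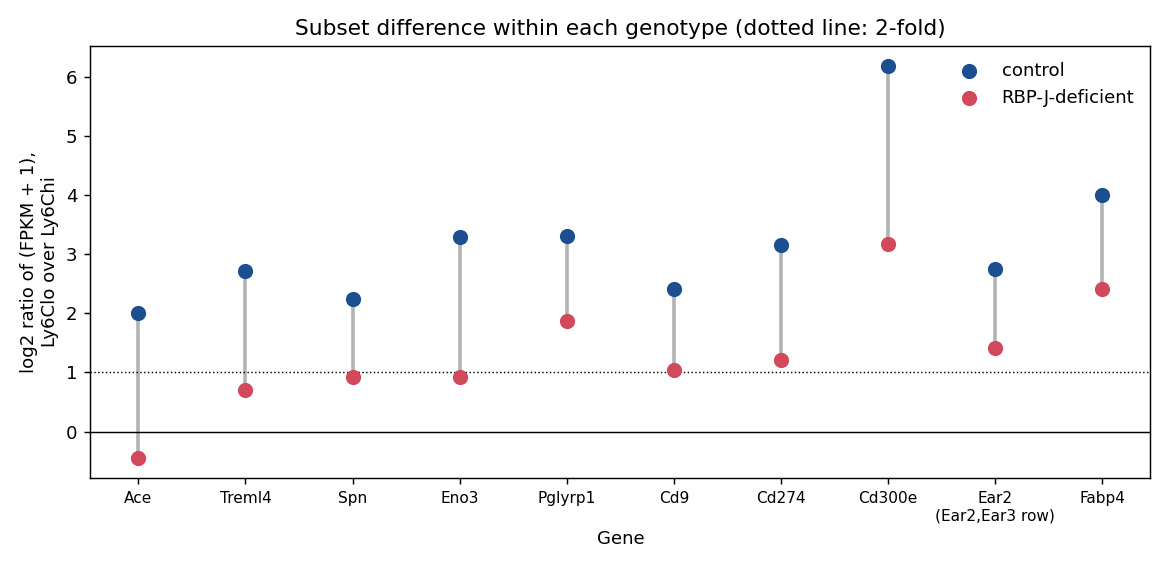
Log2 ratio of (FPKM + 1), Ly6Clo over Ly6Chi, for each gene in control (blue) and RBP-J-deficient (red) mice, with 1 library per group and a dotted line at a 2-fold difference. Every red point lies below its blue point, and Ace is the gene with a red point below 0 (-0.46).

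Within Ly6Clo monocytes the genotype ratios of the 9 genes, from 1 library per group, went both ways. Of the 9 genes, 7 were lower in RBP-J-deficient cells and 2 (Pglyrp1 and Fabp4) higher, while 51.3% of all genes were higher. The median log2 ratio was -0.49, against 0.02 for all genes. The quartiles of all genes were -0.50 and 0.53, and Spn, Eno3, Cd274 and Pglyrp1 lay between them. Ace and Cd9 were at least 2-fold lower, 2 of 9 genes against 11.1% of all genes, and none was at least 2-fold higher, against 8.97%. Ace was past the 0.2-fold threshold of the study's methods, which 0.674% of all genes passed, and no gene was past the 5.7-fold threshold, which 0.273% passed. Rescaling to the same sum shifted the median of all genes to -0.22 and gave 537 higher and 1813 lower 2-fold calls among all genes, against 919 and 1134. With it, Treml4 (-1.29) and Cd300e (-1.11) were also past 2-fold, so that 4 of the 9 genes were at least 2-fold lower. The ratios of Pglyrp1 and Fabp4 were then 0.11 and 0.24. After the GC correction they were 0.63 and 0.16.

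Genes of the other monocyte subset differed in the same comparison. Ccr2, the chemokine receptor of classical monocytes, had 59.2 and 474 FPKM in control and RBP-J-deficient Ly6Clo and 712 and 624 in Ly6Chi monocytes. Ly6c2, which encodes the antigen of the sort, had 10.9 and 78.3 FPKM in Ly6Clo and 2013 and 1594 in Ly6Chi monocytes. F13a1, which encodes a subunit of coagulation factor XIII, had 0.611 and 10.7 FPKM in Ly6Clo and 480 and 283 in Ly6Chi monocytes. All 3 were higher in RBP-J-deficient than control Ly6Clo monocytes, and all 3 lay below both Ly6Chi libraries in either genotype. Chil3, a chitinase-like protein, had 37.0 and 79.9 FPKM in Ly6Clo and 1153 and 1257 in Ly6Chi monocytes, and Vcan, a matrix proteoglycan, was under 1 FPKM in both Ly6Clo libraries. The part of such a shift in the values of the 9 genes was not tested.

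Other blood and tissue cells were checked by lists of marker genes. The 5 T cell markers were under 1 FPKM in all libraries. Of the B cell genes, Cd79b, a part of the B cell receptor, had 41.9 and 100.2 FPKM in control and RBP-J-deficient Ly6Clo and 23.7 and 43.7 in Ly6Chi monocytes, while Cd79a, its partner, had 9.02 and 1.13 in Ly6Clo and 0.699 and 1.42 in Ly6Chi monocytes, and Pax5 and Ebf1 were under 1 in every library. The 5 platelet markers summed to 126, 124, 350 and 293 FPKM, in the order control Ly6Clo, RBP-J-deficient Ly6Clo, control Ly6Chi and RBP-J-deficient Ly6Chi. In that order the 5 neutrophil markers found summed to 266, 168, 1372 and 1058 FPKM. Most of each neutrophil sum was S100a8 alone, at 197, 126, 1085 and 861 FPKM, while Mpo is listed at 0 throughout. The 5 red cell markers summed to 1337, 999, 1217 and 903 FPKM in that order, with Hba-a1 and Hbb-bt making up most of each sum. Hbb-bs ran the other way, with 11.1 and 54.6 FPKM in control and RBP-J-deficient Ly6Clo and 32.7 and 59.2 in Ly6Chi monocytes. Their part in the values was not tested.

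Within Ly6Chi monocytes the genotypes were ordered differently. Of the 9 genes, 8 were higher in RBP-J-deficient cells, against 50.4% of all genes. At least 2-fold higher were 6 (Cd274, Cd300e, Eno3, Fabp4, Pglyrp1 and Treml4), against 2.64% of all genes. None was at least 2-fold lower, against 4.56%, and none was past 5.7-fold or 0.2-fold, each of which 0.156% of all genes passed. The median log2 ratio was 1.76, and that of all genes was 0.00. Ace, at -0.09, was the gene that was not higher, although its ratio flipped to 0.06 after the GC correction.

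These levels were also set against the distance between the control subsets. The RBP-J-deficient Ly6Chi level lay 30.7% of the way from the control Ly6Chi to the control Ly6Clo FPKM in Eno3, 30.1% in Cd274, 30.0% in the joined Ear2 row and 29.1% in Pglyrp1. It lay 22.6% of the way in Fabp4, 22.1% in Spn and 18.8% in Treml4. In Cd300e and Cd9 it covered 5.07% and 4.37%. In Ace, which was not higher, the share was -2.06%.

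**Figure D3:**
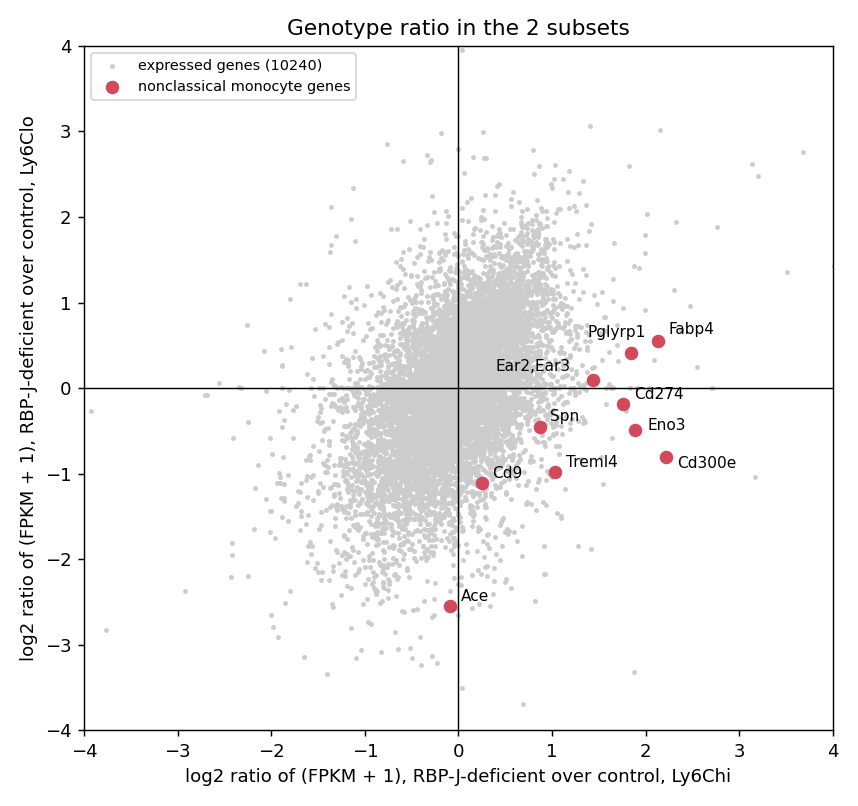
Genotype ratio (log2 of FPKM + 1 in RBP-J-deficient over that in control cells) in Ly6Chi (horizontal) against Ly6Clo monocytes (vertical), with all 10240 expressed genes in grey, 19 of them outside the axes, and the nonclassical monocyte genes in red. Of the red points, Ace is lowest at -2.55 and Cd300e furthest right at 2.22, Pglyrp1 (0.41) and Fabp4 (0.55) lie above 0 on the vertical axis, and the joined Ear2 row (0.10) and the horizontal position of Ace (-0.09) change sign under the GC correction.

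The difference between the genotype ratios of the subsets was below 0 in each of the 9 genes, from -3.03 (Cd300e) to -1.32 (Spn), with a median of -1.94. For each gene this equals the subset difference in RBP-J-deficient mice minus that in control mice. It therefore restates the smaller subset differences given above and is not a separate observation. Over all genes it was below 0 in 46.3%, with a median of 0.06. In 6 of the 9 genes (Treml4, Spn, Eno3, Cd9, Cd274 and Cd300e) the genotype ratio was below 0 in Ly6Clo and above 0 in Ly6Chi monocytes, whereas ratios of opposite sign, either way round, were found in 3049 of 10240 genes. Of the 533 genes at least 2-fold higher in control Ly6Clo than control Ly6Chi monocytes, 224 had ratios of opposite sign. A difference below 0 was found in 84.8% of the 533, with a median of -0.75. That set was chosen on the same control libraries that enter the difference, so its shares and the values of the 9 genes are descriptions that share samples. The difference was not tested.

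**Figure D4:**
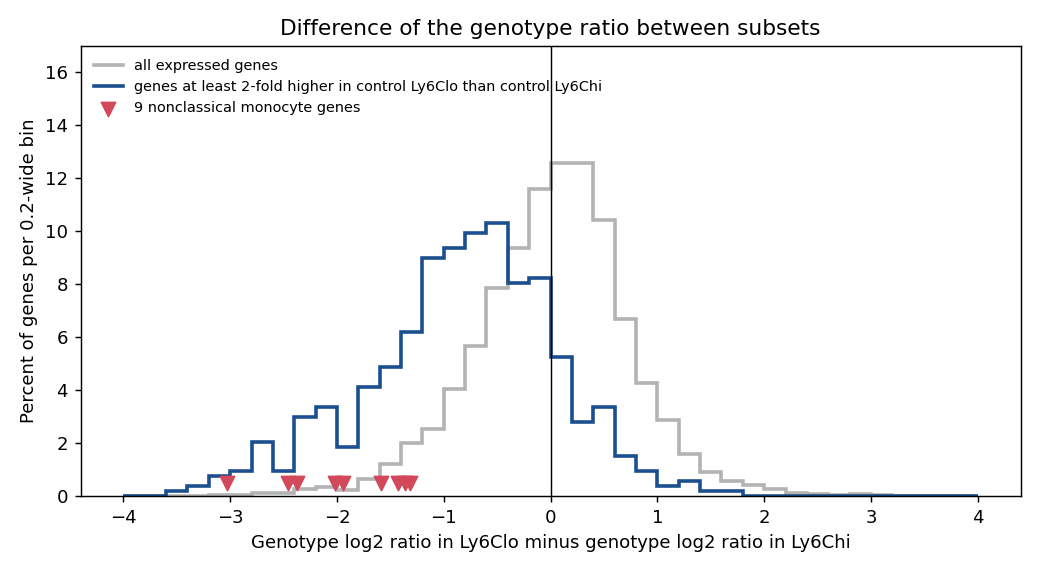
Distribution of the genotype log2 ratio in Ly6Clo minus that in Ly6Chi monocytes, as the percent of genes per bin of 0.2, for all expressed genes (grey) and for the 533 genes at least 2-fold higher in control Ly6Clo than control Ly6Chi monocytes (blue), with 19 genes outside the axis. The 9 nonclassical monocyte genes (red triangles, set at an arbitrary height) lie between -3.03 and -1.32.

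Other genes known from nonclassical monocytes gave a mixed picture. Of 13 such genes with a row, 9 were at least 2-fold higher in control Ly6Clo than control Ly6Chi monocytes, against 5.21% of all genes. In RBP-J-deficient mice 5 of the 13 were so (Fcgr4, Cd36, Apoc2, Cebpb and Klf2), against 8.41%. Cebpb and Klf2 were not among the 9, with subset differences of 0.65 and 0.88 in control mice. Nr4a1 was at least 2-fold lower in RBP-J-deficient Ly6Clo than Ly6Chi monocytes (-1.46), as were 1083 of 10240 genes. In Ly6Clo monocytes, 5 of the 13 were at least 2-fold lower in RBP-J-deficient cells (Nr4a1, Itgax, Itgal, Pou2f2 and Csf1r), against 11.1% of all genes, and 1 higher (Cd36), a share near the 8.97% of all genes. Nr4a1, the nuclear receptor that these cells depend on, had 618 and 65.6 FPKM in control and RBP-J-deficient Ly6Clo and 214 and 182 in Ly6Chi monocytes. Itgax, which encodes CD11c, had 33.7 and 3.10 FPKM in Ly6Clo and 3.36 and 1.45 in Ly6Chi monocytes. In both, as in Ace, the RBP-J-deficient Ly6Clo level was below the control Ly6Chi level. For Nr4a1 the paper reports otherwise. With replicate mice, it found similar Nr4a1 protein (flow cytometry) and RNA (qPCR) in Ly6Clo monocytes of the 2 genotypes. The lower Nr4a1 value here rests on 1 library per group.

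Fcgr4 and Cd36 followed other members more closely. Fcgr4, an activating Fc receptor, had 857 and 807 FPKM in Ly6Clo and 73.6 and 176 in Ly6Chi monocytes, so the Ly6Clo libraries were near each other as in Cd274. Cd36, a fatty acid and scavenger receptor, had 426 and 945 FPKM in Ly6Clo and 26.9 and 137 in Ly6Chi monocytes, higher in both RBP-J-deficient libraries as in Fabp4. In Ly6Chi monocytes, 4 of the 13 genes were at least 2-fold higher in RBP-J-deficient cells (Fcgr4, Cd36, Apoc2 and Gngt2), against 2.64% of all genes, and 1 lower (Cebpb), against 4.56%.

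By Euclidean distance between log2(FPKM + 1) profiles, centred on the mean of the 4 libraries, the member nearest to the median profile of the group was Eno3 (0.27), followed by Cd274 (0.29). Cd300e (2.49) and Ace (2.38) were the furthest. Among 6395 other genes whose mean FPKM was 5 or more, the 3 nearest to that profile were Ltb (0.45), Ly6d (0.52) and Tcf7l2 (0.54). Ltb, a cytokine of the lymphotoxin pathway, had 143 and 65.3 FPKM in Ly6Clo and 12.2 and 37.6 in Ly6Chi monocytes. Likeness over 4 libraries is a description and rests on 4 values a gene.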

How the data were processed

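Ly6Clo and Ly6Chi monocytes from the blood of 2 genotypes gave 4 paired-end RNA-seq libraries, 1 per group. The authors deposited FPKM values for each of the 6 pairs of libraries in a table with the layout of Cuffdiff. The submitters' processing notes name CASAVA 1.8, TopHat2 2.1.0, Cufflinks 2.2.1 and mm10. The table's columns of fold change, test statistic, p and q, made by its authors from single libraries, were not used.

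Each pair has 23997 rows, and 2 symbols that occur in duplicate were summed, which left 23995 symbols. A library's value differed between pairs in 11 genes, none of them a member, and each ratio used the values of its own pair. A total of 105 rows join several symbols. Log2 ratios of (FPKM + 1) were computed and set against 2-fold and the study's thresholds of 5.7 and 0.2. Positions were printed counting from 1. FPKM gives no read counts, so no count test, interval or detection limit was possible. No p-value was computed.

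The members and the lists were chosen with earlier results of these data known. All members are named. Genes of related families and marker lists were counted, and named where at least 2-fold apart in a comparison or highest of their list, and the 3 genes nearest in profile were named. A few other list genes, below 2-fold or at 0, were named after their values were seen. Symbols not found by name were left out of the lists. Some marker genes, and the sums and counts that include them, are not reported here.

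Alternatives were the pseudocount (0.1 and 5), rescaling to TPM, median centring, the mean over pairs, the filter on FPKM and a GC correction. The last subtracted a lowess trend (fraction 0.3, 3 iterations) of the ratio on the GC percentage of each gene's longest transcript in GENCODE, found for 95.2% of 10240 genes. The calls and the correction were also run on simulated data. The changes put in lay past the thresholds and the GC trend was put in by hand. That run therefore does not bear on calls from single libraries without replicates. Transcripts were from GENCODE and promoters from RefSeq (GRCm38.p6), with entries for 9 of the 10 genes. Python 3.11.15, pandas 2.3.3, statsmodels 0.14.6 and matplotlib 3.10.9 were used.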

Additional observations from a re-analysis of the deposited data

Results flagged for a closer look

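In 6 of the 9 genes the single RBP-J-deficient library was below the control library in Ly6Clo and above it in Ly6Chi monocytes. The genotype log2 ratio in Ly6Clo minus that in Ly6Chi monocytes was -2.02 in Treml4, -1.32 in Spn, -2.37 in Eno3, -1.36 in Cd9, -1.94 in Cd274 and -3.03 in Cd300e. These values restate the smaller subset differences of the same genes in RBP-J-deficient mice. The difference was not tested, since each group holds 1 library, and opposite signs were also found in 3049 of 10240 genes. Among the 533 genes at least 2-fold higher in control Ly6Clo than control Ly6Chi monocytes they were found in 224.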

How the results depend on the processing

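The 63 results were recomputed under 10 alternatives, 2 of them, on the Ear2 row, chosen after the data were seen. Of the 422 values obtained, 406 kept their direction and their side of 2-fold, or for counts stayed within 1.5 times. The mean over pairs and the filters on FPKM could not change any of these values. No member differed between pairs, and all members passed each filter. The 406 therefore include values that were bound to stay the same.

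The count of genes past the 0.2-fold threshold in Ly6Clo monocytes, 1 (Ace), was 0 with a pseudocount of 5 and 0 after the GC correction, where the log2 ratio of Ace was -2.32 and -2.20. After rescaling to TPM, the median subset difference in RBP-J-deficient mice was 0.83 in place of 1.05, and 4 rather than 2 genes were at least 2-fold lower in RBP-J-deficient Ly6Clo monocytes. The RBP-J-deficient sums lack Actb, which is listed at 0 there. The genotype ratio of the joined Ear2 row in Ly6Clo monocytes reversed from 0.10 to -0.21 in TPM and to -0.25 after the GC correction, and that of Ace in Ly6Chi monocytes from -0.09 to 0.058 after the GC correction. The cause of the changes under the GC correction was not tested. Another 9 values of single genes crossed 2-fold without a change of direction. The median difference of the genotype ratio between subsets ranged from -2.21 to -1.41.

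Among all genes, the pseudocount moved counts most. Genes at least 2-fold higher in control Ly6Clo than control Ly6Chi monocytes numbered 533, 877 with a pseudocount of 0.1 and 241 with 5. Those at least 2-fold higher in RBP-J-deficient than control Ly6Chi monocytes numbered 270, 591 and 73 in the same order, and those at least 2-fold lower in RBP-J-deficient Ly6Clo monocytes 1134, 1747 and 458. In TPM the latter were 1813. Those at least 2-fold higher in RBP-J-deficient Ly6Clo monocytes fell in number from 919 to 511 with a pseudocount of 5 and 537 in TPM, those at least 2-fold lower in RBP-J-deficient Ly6Chi monocytes were 467, 933 and 101 with the 3 pseudocounts, and those at least 2-fold higher in RBP-J-deficient Ly6Clo than Ly6Chi monocytes 861, 1247 and 412. With the pseudocounts of 1, 0.1 and 5, the genes past 5.7-fold numbered 76, 175 and 28 between the control subsets, 31, 179 and 9 between the RBP-J-deficient subsets, 28, 119 and 8 between genotypes in Ly6Clo and 16, 82 and 9 in Ly6Chi monocytes. Those past 0.2-fold numbered 69, 325 and 15 in Ly6Clo (148 in TPM, 45 after the GC correction) and 16, 162 and 4 in Ly6Chi monocytes. Among genes that reached 1 FPKM in all 4 libraries, 15 passed 5.7-fold between the RBP-J-deficient subsets and 17 between genotypes in Ly6Clo monocytes, and in Ly6Chi monocytes 163 were 2-fold higher, 247 2-fold lower, 4 past 5.7-fold and 5 past 0.2-fold.

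No paired analysis was possible because each group holds 1 library. Leaving out a library was not possible for the same reason, and depth is unknown.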
